A study of Mus musculus with 95 samples.

Results

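The proteasome is the protease complex that degrades ubiquitin-tagged proteins in every cell. Its core particle is a stack of rings, with alpha subunits on the outside and beta subunits, some of which carry the active sites, on the inside. A regulatory particle caps the core, where ATPases unfold the substrate and feed it inward and non-ATPase subunits bind ubiquitin chains and cut them off. When cells meet interferon, inducible catalytic subunits replace the constitutive ones in newly built cores.

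The genes described here are the constitutive subunits, taken as all genes named Psma, Psmb, Psmc or Psmd with a number in the array annotation, without the inducible Psmb8, Psmb9 and Psmb10. Only probe sets with a single gene symbol were used, and of several for a gene the brightest on average was kept. The rule found 34 of 17097 genes: 8 alpha and 8 beta subunits of the core, and 5 ATPases, 11 non-ATPase subunits and 2 chaperones of base assembly on the side of the regulatory particle. The ATPase Psmc6 and the base chaperone Psmd10 were not found by it. Each of the 95 arrays held kidney RNA of female SNF1 mice, which are SWR X NZB hybrids that develop lupus-like nephritis with age. Mice of 9 weeks were injected intraperitoneally with pristane, a hydrocarbon oil that accelerates the disease, and compared with age-matched untreated mice. Week 0 has 7 untreated kidneys. Week 2 has 10 untreated and 9 pristane kidneys, and week 4 has 9 untreated and 10 pristane. Week 8 has 10 and 8, week 12 likewise 10 and 8, and week 14 has 5 untreated and 9 pristane kidneys. The labels number the samples of a group without saying that each is another mouse. Samples are called mice here, and p-values judge a difference between groups against the spread between samples. No group was given oil or saline as a mock injection in the labels, so the untreated mice are the only control.

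Proteasome genes are known to be induced together by the transcription factor Nfe2l1 through antioxidant response elements, and many of their promoters hold CCAAT boxes. The bases before the RefSeq gene start (GRCm38.p6) were therefore searched on both strands for TGACNNNGC, the core of the antioxidant response element, and for CCAAT. Of the 34 genes, 27 had a promoter entry, with 29 starts, and Psma8, Psmb1, Psmb2, Psmb7, Psmc3, Psmd3 and Psmd7 had none. In the 250 bases before the start, TGACNNNGC lay at 4 of the 29 starts (13.8%, against 10.2% of 32851 starts of all genes), those of Psmb5, Psmb6, Psmd9 and Psmd12. CCAAT lay at 11 of the 29 starts (37.9%, against 33.8% of all), among them Psma3 and Psmd14, and no member held both motifs. The start is the one that the RefSeq promoter entry uses. For Psma3 and Psmb6 it lies downstream of the first base of the RefSeq gene, so other transcripts of these genes start earlier. The matches of these genes lie between that first base and the start used, and so within the annotated gene. Shown are the bases directly before this start of the catalytic subunits Psmb5 and Psmb6 and of 4 subunits that changed at week 14, with matches in capitals. TGACNNNGC is marked in Psmb5 (chr14:54617996-54618095, minus strand), Psmb6 (chr11:70525257-70525356, plus strand) and Psmd9 (chr5:123228090-123228189, plus strand). CCAAT, on either strand, is marked in Psma3 (chr12:70974463-70974622, plus strand) and Psmd14 (chr2:61711534-61711693, plus strand), and Psmc4 (chr7:28050093-28050192, minus strand) had no match.
Psmb5: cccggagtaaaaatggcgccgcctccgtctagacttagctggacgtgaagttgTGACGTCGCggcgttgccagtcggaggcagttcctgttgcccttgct
Psmb6: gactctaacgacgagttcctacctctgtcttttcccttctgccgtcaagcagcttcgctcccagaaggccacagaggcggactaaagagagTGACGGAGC
Psmd9: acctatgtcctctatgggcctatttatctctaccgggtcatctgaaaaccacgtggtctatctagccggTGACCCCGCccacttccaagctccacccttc
Psma3: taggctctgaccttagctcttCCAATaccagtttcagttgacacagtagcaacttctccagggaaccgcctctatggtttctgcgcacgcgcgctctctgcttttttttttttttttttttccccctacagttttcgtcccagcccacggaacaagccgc
Psmd14: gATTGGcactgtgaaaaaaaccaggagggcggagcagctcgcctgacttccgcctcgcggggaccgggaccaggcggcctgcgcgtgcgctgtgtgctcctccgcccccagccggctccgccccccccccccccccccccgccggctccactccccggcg
Psmc4: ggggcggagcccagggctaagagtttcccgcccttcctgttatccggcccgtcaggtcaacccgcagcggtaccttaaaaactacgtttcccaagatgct

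Over the 11 groups the mean signals of the constitutive subunits spread by different amounts. The same spread was not computed for other genes. In 32 of the 34 the mean signal over all arrays was above 4 on the log2 scale, and the spread between the lowest and the highest of the 11 group means was 0.44 in the median subunit, against a median within-group SD of 0.146. The smallest spread was 0.16, in the lid subunit Psmd6, and the widest was 1.05, in the ATPase Psmc4. The remaining genes are isoforms of other tissues and were near the floor of the array at 2.21. Psmb11, the beta subunit of the thymic cortex, was at the floor on 91 of 95 arrays. Psma8, the alpha subunit of male germ cells, had group means between 2.28 and 2.52. The mean of the 2 thymic cortex markers had group means of 2.51 to 2.62. Of the 2 germ cell markers measured, 1 was at the floor on most arrays, and their mean had group means of 5.10 to 5.48.

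In the deposited values the core had a low level in untreated mice at week 0, and the regulatory particle did so less distinctly. Each subunit was set to its own mean over all untreated mice. Averaged over 14 core subunits, week 0 kidneys lay at -0.26 ± 0.115 (SD, n = 7). All other group means lay between -0.01 and 0.10. For 18 regulatory subunits the week 0 mean was -0.10 ± 0.0489 (n = 7), equal to that of untreated mice at week 12, and the other groups lay between -0.05 and 0.13. Week 0 was the lowest of the 11 groups for 13 of 14 core subunits but only 6 of 18 regulatory subunits. This was not counted for other genes. Untreated week 14 minus week 0 had a median of 0.17 in 16 core and -0.05 in 18 regulatory subunits. In 4398 genes with a mean above 8 the median was 0.16, so the core was close to other highly expressed genes. After quantile normalization the median was -0.06 in the alpha ring (3 of 8 positive) and 0.14 in the beta ring (6 of 8 positive). The regulatory mean was highest at week 2, at 0.13 ± 0.0815 in untreated (n = 10) and 0.13 ± 0.0341 in pristane kidneys (n = 9), and lower from week 8 on. At each week the pristane and untreated means of the regulatory particle differed by no more than their SDs.

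**Figure D1:**
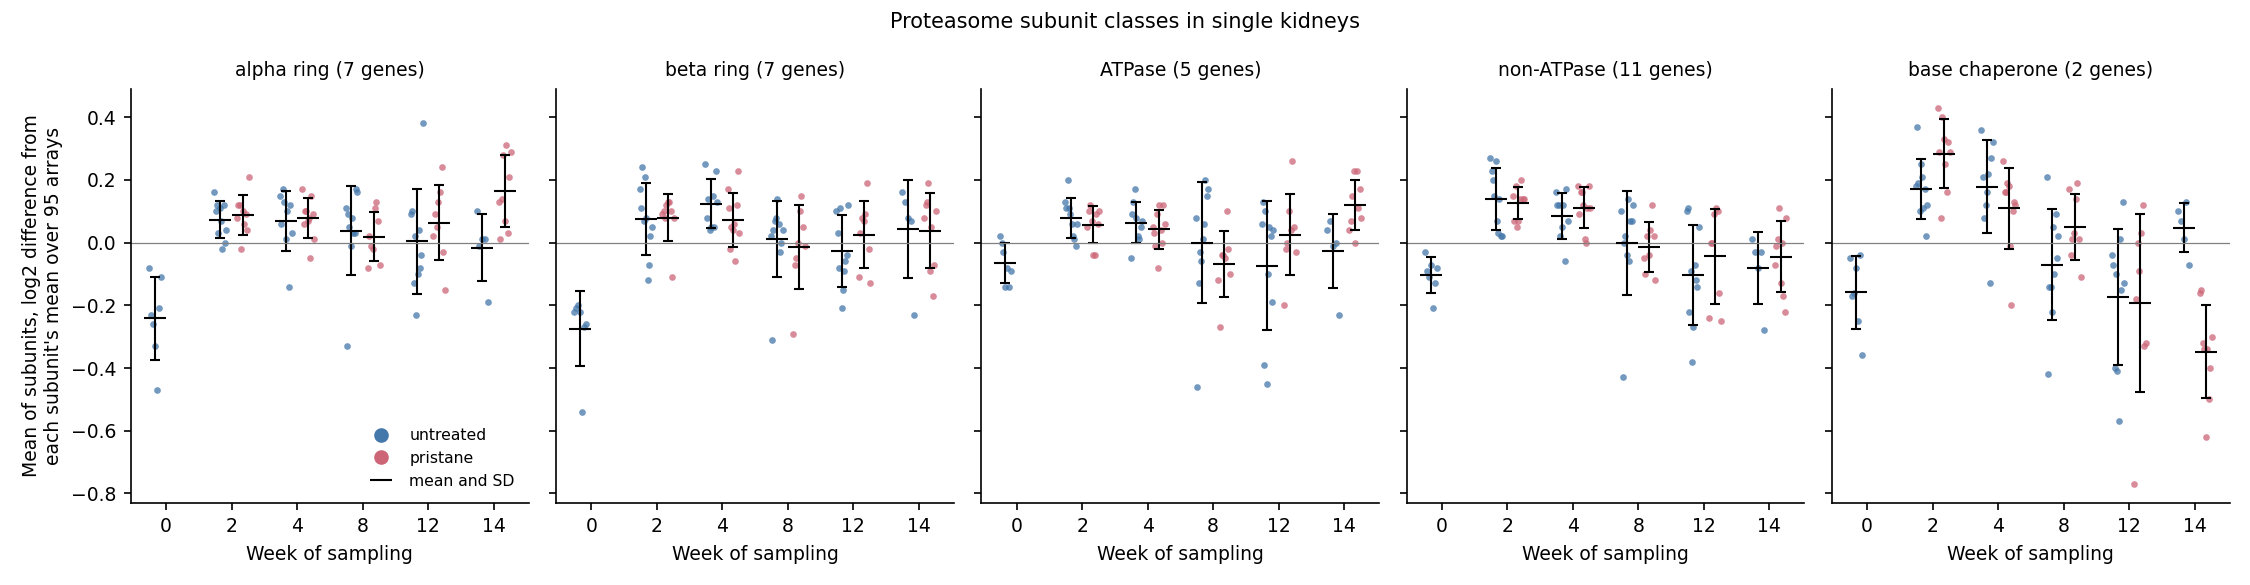
Mean level of the subunits of each class in single kidneys (points), by week of sampling (horizontal axis) in untreated and pristane mice, with group mean and SD. The vertical axis is the log2 difference from each subunit's own mean over all untreated mice, although its label names 95 arrays. Core subunits were lowest at week 0. At week 14 the base chaperones were lower in all 9 pristane mice (mean -0.35 against 0.05), while the alpha subunits (mean 0.16 against -0.02) and the other classes overlapped between the groups.

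At weeks 2, 4, 8 and 12 no constitutive subunit passed the test between pristane and untreated kidneys, which does not show that the groups were equal. Differences in all 34 lay between -0.19 and 0.22 on the log2 scale at week 2, -0.19 and 0.09 at week 4, -0.19 and 0.18 at week 8, and -0.12 and 0.20 at week 12. The lowest adjusted p values of limma over all probe sets were 0.486, 0.929, 1 and 0.827. At an unadjusted p under 0.05 there were 2 subunits at week 2, 1 each at weeks 4 and 8 and 0 at week 12. Few genes of any kind passed in these weeks. Of all 45037 probe sets tested, week 2 gave 0.249% (0.231% higher, 0.0178% lower) and week 4 gave 0.138% (0.124% higher, 0.0133% lower). Week 8 gave 0.0866% and week 12 gave 0.0244%, all of them higher.

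The count at week 12 was open to a single control. Untreated mouse 10 of week 12 stood apart, with a mean of the 8 macrophage markers of 7.67 against 4.50 to 5.91 in the other 9 untreated mice, and a Psmb8 signal of 9.29 against 5.59 to 7.77. Without it 609 probe sets (1.35%) passed at week 12 in place of 11, and still 0 of the 34 subunits. In this kidney all 7 alpha subunits above the floor level had the highest signal of the 10 untreated week 12 mice. Their mean was 0.38, against -0.23 to 0.10 in the other mice. Among the other classes mouse 10 was highest for 2 of 7 beta subunits, 3 of 5 ATPases, 4 of 11 non-ATPase subunits and 0 of 2 base chaperones. These values describe 1 mouse, picked for its marker signal. The share of other genes with their highest signal in this kidney was not counted, so the counts are not a trait of the subunits. Its label as untreated was taken as given, and whether it is a mislabelled sample or a diseased control cannot be told apart here.

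At week 14, 4 of 34 subunits were higher and 2 lower in pristane kidneys at an adjusted p under 0.05 (limma). The ATPase Psmc4, the alpha subunit Psma3 and the non-ATPase subunits Psmd2 and Psmd14 rose by 1.19 to 1.45 fold, and the base chaperones Psmd9 and Psmd5 fell to 0.701 and 0.826 of the untreated level. The 6 are 17.6% of the subunits. Of all probe sets 8.31% passed (4.57% higher, 3.73% lower), and of 4398 genes with a mean above 8, the level at which most subunits lie, 20.1% passed (8.46% higher, 11.6% lower). Of the 30 subunits with a mean above 8, 4 were higher and 1 lower (16.7%). The share is thus close to that of other highly expressed genes. None of the 6 reached a fold change of 1.5. The median difference of the 34 was 0.08, while that of the highly expressed genes was -0.12.

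Psmc4 is an ATPase of the ring that threads substrates into the core, and it showed the largest rise. Its log2 signals in the untreated mice of week 14 were 10, 10.29, 9.96, 10.23 and 9.93, and in the 9 pristane mice they ran from 10.41 to 10.89 with a median of 10.65. All pristane kidneys were above all untreated kidneys. Here and for the subunits below, the share of other genes without such overlap was not counted. The difference was 0.54 ± 0.0913 (SE, adjusted p = 0.00929). A second probe set of the gene gave a smaller rise of 0.27 ± 0.0705 (adjusted p = 0.0375).

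Psma3 forms part of the outer ring of the core, through which the substrate enters. Untreated signals were 11.08, 11.02, 11, 11.04 and 10.96, and pristane signals ran from 11.11 to 11.42 with a median of 11.22. The groups did not overlap, although the rise was small, at 0.25 ± 0.0462 (adjusted p = 0.0129). Psmc4 and Psma3 passed in all 14 fits that left out 1 mouse of week 14. Their promoters share neither motif, since Psma3 has CCAAT and Psmc4 has no match.

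Psmd2 is the large base subunit to which ubiquitin shuttle proteins dock. Its untreated signals were 9.84, 9.80, 9.71, 9.74 and 9.55, and the pristane signals ran from 9.83 to 10.18 with a median of 10.03. The difference was 0.27 ± 0.0634 (adjusted p = 0.0288), and 8 of 9 pristane mice were above every untreated mouse. The call was lost in 7 of the 14 fits and with median centring (adjusted p = 0.0603). Psmd14 is the lid enzyme that cuts the ubiquitin chain from the substrate. Its untreated signals were 10.58, 10.40, 10.56, 10.55 and 10.34, and pristane signals ran from 10.50 to 11.15 with a median of 10.85. It rose by 0.37 ± 0.1 (adjusted p = 0.0422), with 8 of 9 pristane mice above every untreated mouse, and the call was lost in 12 of the 14 fits. The pristane mouse with the lowest Psmd14 signal was mouse 2. For both subunits the untreated mean of week 14, 9.73 for Psmd2 and 10.49 for Psmd14, was the lowest of the 11 groups. The Psmd2 mean of pristane mice at week 14 was 10, not above the 10.1 and 10.01 of untreated mice at weeks 2 and 4. The Psmd14 mean of pristane mice at week 14, at 10.86, was the highest of the 11 groups.

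Psmd9 and Psmd5 are not parts of the finished proteasome. They are chaperones that hold pairs of ATPases while the base is assembled. For Psmd9 the untreated signals were 7.34, 7.35, 7.16, 7.42 and 7.17, and the pristane signals ran from 6.27 to 6.98 with a median of 6.83, so the groups did not overlap. It was lower by 0.51 ± 0.107 in pristane kidneys (adjusted p = 0.0187), and the call was lost in 2 of the 14 fits. Of its other probe sets, both with a mean of at most 4.99, the differences were -0.50 (adjusted p = 0.114) and 0.02. For Psmd5 the untreated signals were 8.72, 8.64, 8.70, 8.68 and 8.53, and the pristane signals ran from 8.14 to 8.59 with a median of 8.35. It fell by 0.28 ± 0.0754 (adjusted p = 0.0441), and 6 of 9 pristane mice lay below every untreated mouse. The call was lost in 12 of the 14 fits and with median centring (adjusted p = 0.0545). The fall in Psmd9 started from an untreated level at week 14 of 7.29 that was above the 6.84 of untreated mice at week 12.

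The subunit with the largest mean difference did not pass. Psmd3, a scaffold subunit of the lid, had untreated signals of 9.17, 9.14, 8.94, 8.98 and 8.96, and pristane signals from 7.53 to 8.93 with a median of 8.38. All pristane kidneys were below all untreated kidneys, though the nearest values of the groups almost met. The difference was -0.75 ± 0.222, at an adjusted p of 0.0557. The call depended on the processing. Psmd3 passed with quantile normalization (adjusted p = 0.0375), the filter on low values (0.0231), group weights (0.018), a single fit of all groups (7.82e-06) and the mean of all probe sets of a gene (0.0375), but not with median centring (0.0503), the trended robust fit (0.0575) or the mean of 5 adrenal genes as a covariate (0.15). It also passed without pristane mouse 1 or 2. The pristane mice spread widely, with an SD of 0.490 against 0.111 in untreated mice. Mice 1 and 2, at 8.89 and 8.93, were the pristane kidneys nearest the controls. The same mice had the lowest macrophage marker means of the group (6.13 and 6.22, against 7.29 to 7.58 in the other 7 and 5.03 to 5.36 in untreated mice) and the highest proximal tubule marker means.

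**Figure D2:**
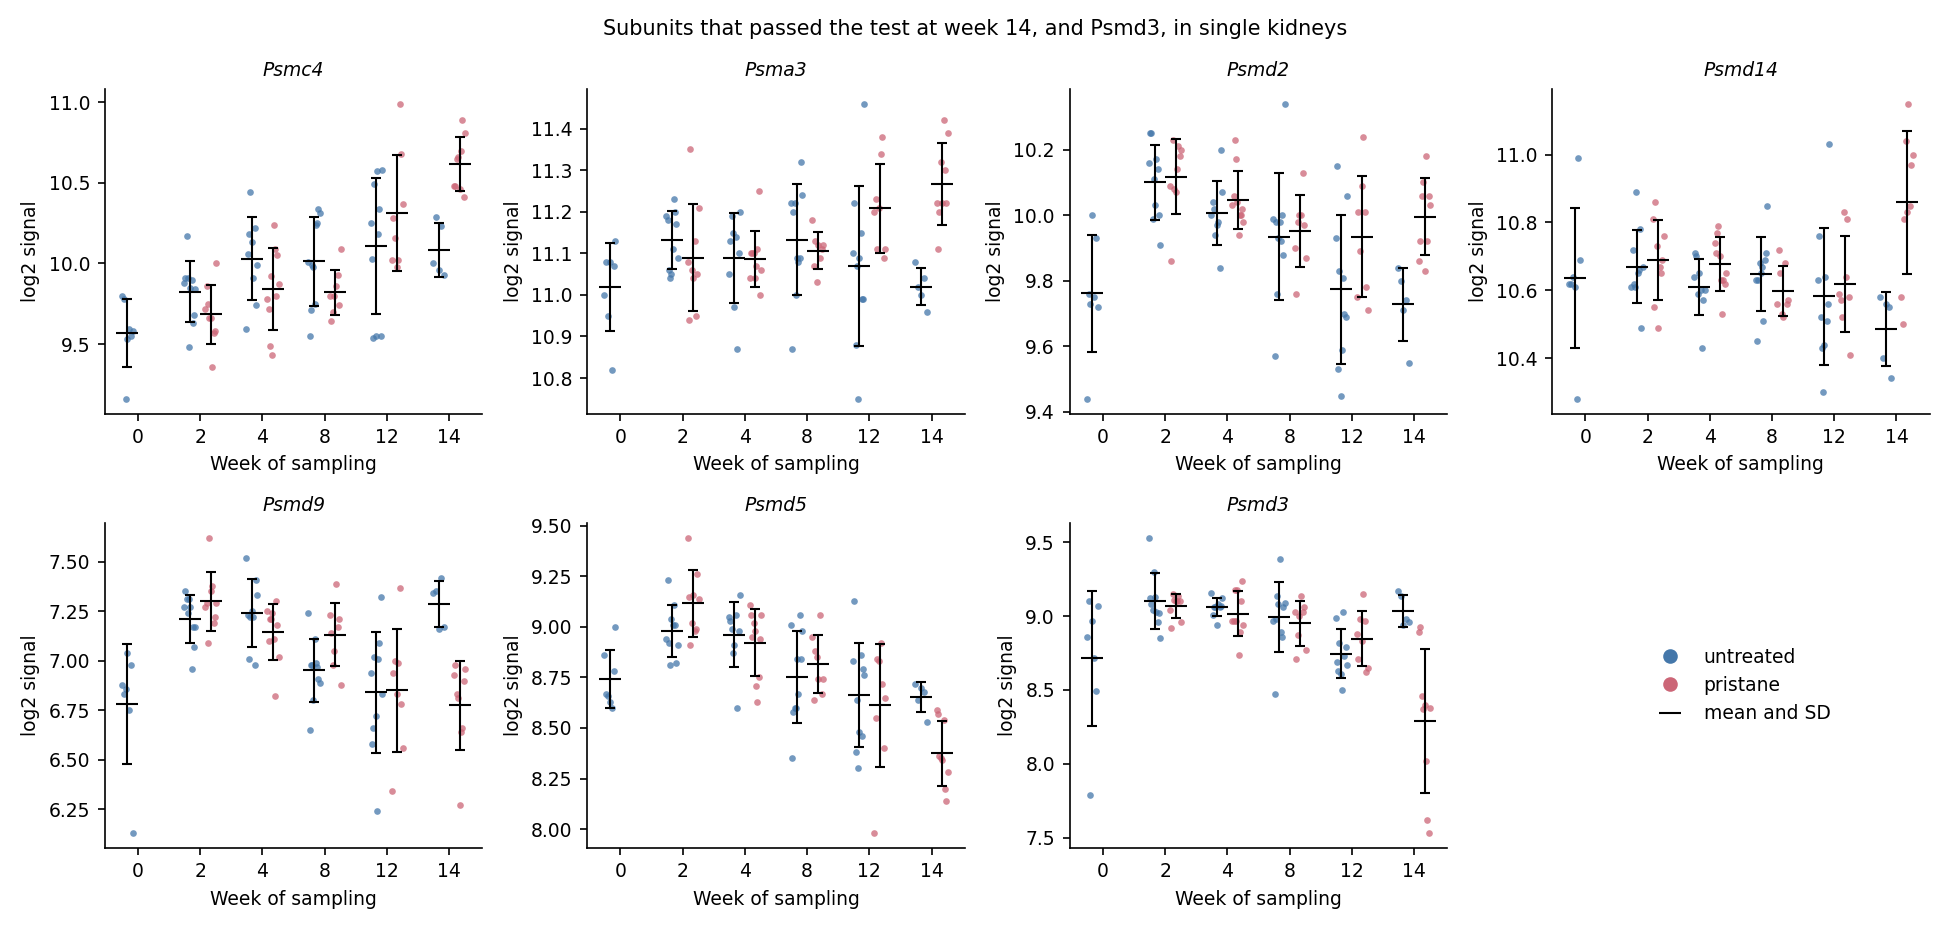
log2 signal (vertical axis) of the 6 subunits that passed the test at week 14 and of Psmd3, in single kidneys (points) by week of sampling (horizontal axis), with group mean and SD. Psmc4 and Psma3 were higher in all 9 pristane mice of week 14 than in the 5 untreated mice. Psmd9 and Psmd3 were lower in all 9, although the Psmd3 groups almost met. No such separation of these subunits was present at earlier weeks. The share of other genes without overlap was not counted.

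By class, the alpha subunits lay mostly above 0 and the beta subunits around 0 at week 14. Of 8 alpha subunits 7 had a positive difference (median 0.21), with 1 passing. Differences were positive for 44.9% of all probe sets and 35.8% of the genes with a mean above 8. The class counts include Psma8 (0.11) and Psmb11 (-0.07), which were near the floor. Psma7 had the highest value, at 0.28 (adjusted p = 0.133), and Psma4 the lowest, at -0.02. Of 8 beta subunits 2 had a positive difference (median -0.01, and 0.04 with 5 positive after quantile normalization), with 0 passing. Psmb3, a beta subunit with no active site, was highest at 0.18 (adjusted p = 0.162), although its second probe set gave -0.22. Among the 5 ATPases the lowest value was -0.11 (Psmc3, adjusted p = 0.231), and among the 11 non-ATPase subunits the values ran from 0.37 in Psmd14 to -0.75 in Psmd3. Between-class differences were not tested.

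**Figure D3:**
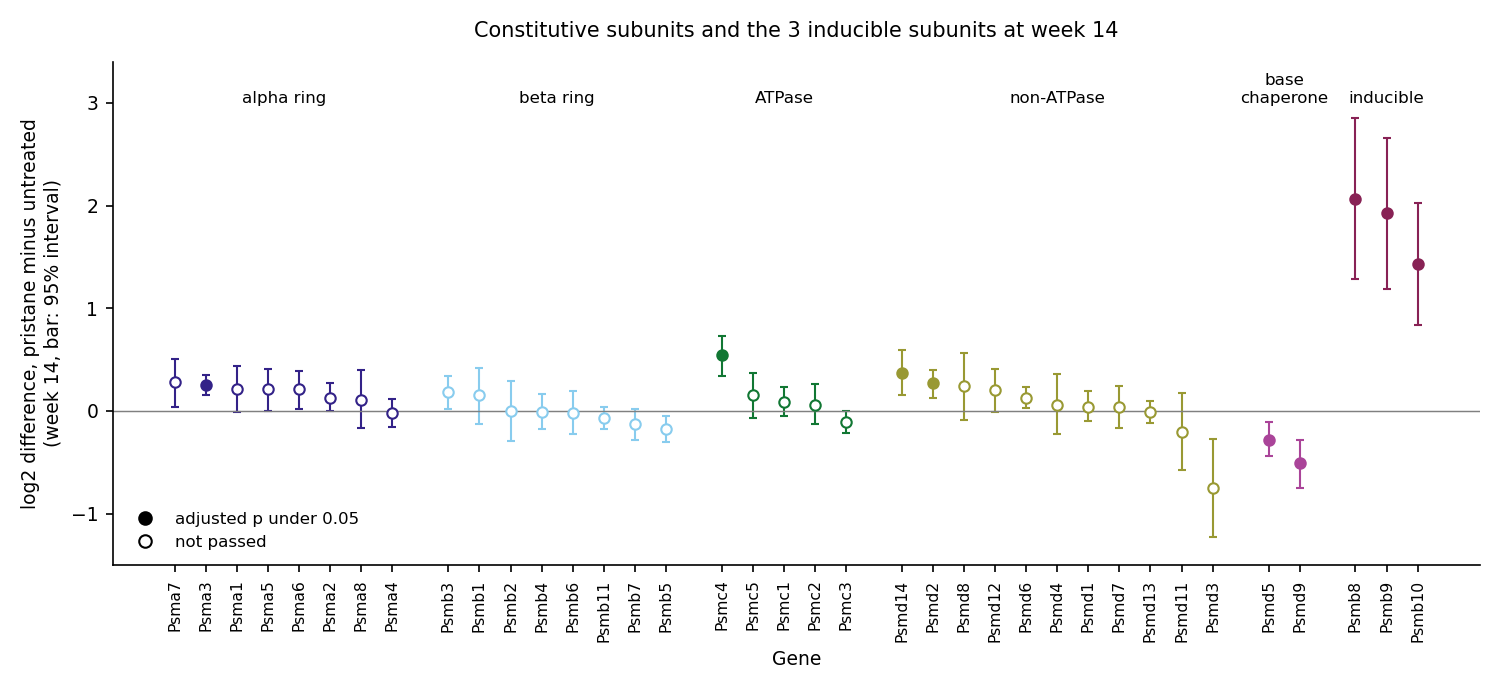
log2 difference between 9 pristane and 5 untreated kidneys at week 14 (vertical axis) with its 95% interval, for each of 34 constitutive subunits by class and for the 3 inducible subunits (horizontal axis). Filled points passed an adjusted p of 0.05. The constitutive subunits lay between -0.75 and 0.54, below the 1.43 to 2.06 of the inducible subunits.

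None of the constitutive catalytic subunits passed the test at week 14. Psmb5, which carries the chymotrypsin-like site, had a difference of -0.18 ± 0.0571 (adjusted p = 0.0725), with untreated signals of 10.98, 10.96, 10.93, 10.85 and 10.69 and pristane signals from 10.59 to 10.84 with a median of 10.65. The lowest untreated value is that of mouse 5, and Psmb5 passed, as lower, in the fit without it and in none of the other 13 fits that left out 1 mouse. Psmb7, with the trypsin-like site, had -0.13 ± 0.0705 (adjusted p = 0.298). Psmb6, with the caspase-like site, had -0.02 ± 0.0960 (adjusted p = 1), or 0.02 after quantile normalization. The 95% intervals were -0.30 to -0.05 for Psmb5, -0.28 to 0.02 for Psmb7 and -0.23 to 0.19 for Psmb6. The 4 members with TGACNNNGC before their start differed in sign at week 14, with Psmb5, Psmb6 and Psmd9 as given and Psmd12 at 0.20 (adjusted p = 0.25).

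Their inducible counterparts all rose at week 14. Psmb8, which takes the place of Psmb5, rose 4.18 fold, Psmb9, the counterpart of Psmb6, 3.8 fold, and Psmb10, the counterpart of Psmb7, 2.69 fold (adjusted p = 0.0105, 0.0103 and 0.0135, limma). The difference between the inducible and the constitutive log2 signal on the same array was then compared between pristane and untreated mice for the 3 pairs at 5 weeks, by a two-sided exact permutation test. At week 14 the difference was larger in pristane kidneys by 2.24 for Psmb8 minus Psmb5, 1.95 for Psmb9 minus Psmb6 and 1.56 for Psmb10 minus Psmb7. All 9 pristane mice were above all untreated mice in each pair (exact p = 5e-04, the smallest these group sizes allow, 0.00125 after adjustment over the 15 tests).

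The pairs also differed at weeks 2 and 4 by this test, which is adjusted over 15 tests and not over all probe sets. By limma over all probe sets, Psmb8 alone of the 3 inducible subunits passed at week 2 (0.73, adjusted p = 0.00207), and none passed at week 4 (lowest adjusted p = 0.357). At week 2 the pristane excess was 0.74 for Psmb8 minus Psmb5 (adjusted exact p = 0.000812), 0.43 for Psmb10 minus Psmb7 (0.00125) and 0.35 for Psmb9 minus Psmb6 (0.00362). At week 4 it was 0.75, 0.36 and 0.46 (adjusted exact p = 0.00125, 0.0183 and 0.0128). Part of these values came from the constitutive subunits, none of which passed by limma. Psmb5, Psmb7 and Psmb6 differed by -0.01, -0.19 and -0.03 at week 2, and by -0.03, -0.13 and -0.16 at week 4. Other measures differed here too. The mean of the adrenal genes averaged 6.91 in pristane and 4.69 in untreated kidneys at week 2, and that of the macrophage markers averaged 4.81 against 4.69 at week 2 and 5.29 against 4.73 at week 4. Their part in the pair differences was not tested. At week 8 no pair passed (0.20, -0.03 and 0.04), and untreated mice then varied widely, with Psmb8 from 5.80 to 8.94. At week 12 only Psmb8 minus Psmb5 passed, at 1.08 (adjusted exact p = 0.0355), against 0.49 and 0.36 for the other two. In all, 10 of 15 tests passed, 9 to 12 with 1 mouse left out, and 12 without untreated mouse 10 of week 12.

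**Figure D4:**
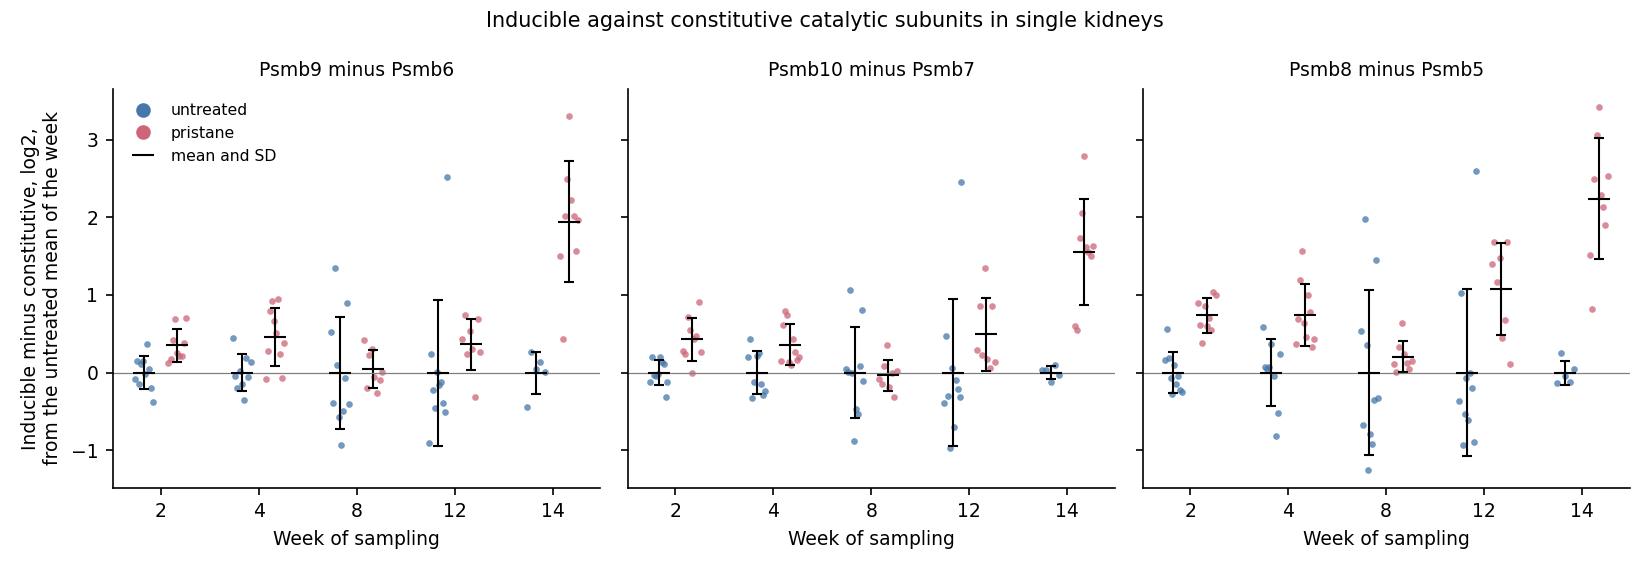
Inducible minus constitutive log2 signal of each catalytic pair in single kidneys (points), as the difference from the untreated mean of the same week (vertical axis), by week of sampling (horizontal axis), with group mean and SD. At week 14 all 9 pristane mice lay above all 5 untreated mice in each pair, by 1.56 to 2.24 in the mean, and at week 12 untreated mouse 10 lay above every other mouse of that week.

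Genes that work with the proteasome were given as 4 further lists, to be read against the 8.31% of all probe sets and 20.1% of highly expressed genes that passed at week 14. Of the alternative caps and the inhibitor, 2 of 4 measured genes were higher at week 14, Psme1 (0.85 ± 0.216, adjusted p = 0.0349) and Psme2 (0.86 ± 0.163, adjusted p = 0.0133), which together form the interferon-induced activator of the core. Psmf1, the proteasome inhibitor PI31, had a difference of -0.73 ± 0.213 that did not pass (adjusted p = 0.0529). Of 10 proteasome-associated genes 1 was lower, the shuttle factor Ubqln1 (-0.33 ± 0.0740, adjusted p = 0.0255). None of the 5 chaperones of core assembly passed, and the smallest p was that of Psmg1 (-0.55 ± 0.199, adjusted p = 0.107). None of 5 regulators passed either, with Nfe2l1 at -0.51 ± 0.226 (adjusted p = 0.195) and Nfe2l2 at 0.21 ± 0.106 (adjusted p = 0.264). At unadjusted p under 0.05, 1 core assembly chaperone and 1 regulator were lower. Ubiquitin genes were not analysed here.

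Other measures differed between the groups of week 14 as well. Of the markers, 6 of 8 macrophage, 3 of 5 T cell and 3 of 3 fibroblast genes were higher, and 3 of 6 proximal tubule genes were lower, with a mean of 8.38 to 10.71 against 10.59 to 10.80 in untreated mice. The mean of 5 adrenal genes was 3.22 to 5.83 in pristane and 3.27 to 3.52 in untreated mice. The difference between the 3' and the 5' Gapdh control probe sets, a sign of RNA integrity, was 1.15 to 1.52 in pristane and 1.01 to 1.13 in untreated mice. That of Actb overlapped, at 2.31 to 2.83 in pristane and 2.45 to 2.67 in untreated mice. Their part in the result was not tested, except that with the adrenal mean as a covariate, added after seeing the data, 2 of the 6 subunits passed, Psmc4 (0.54, adjusted p = 0.0305) and Psma3 (0.23, adjusted p = 0.0496). In whole kidney RNA, fewer cells of a type and less RNA per cell cannot be told apart.

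Whether the pristane effect at week 14 differed from that at week 12 was tested as an interaction, which no subunit passed (0% of all probe sets passed, in either direction). At an unadjusted p under 0.05 there were 3 subunits. Psmd3 had a difference of effects of -0.85 ± 0.215 (adjusted p = 0.0716), Psmd9 of -0.52 ± 0.192 (adjusted p = 0.153) and Psmd14 of 0.33 ± 0.131 (adjusted p = 0.189). Pristane kidneys of week 14 compared directly with pristane kidneys of week 12 gave 0 of 34 subunits as well, where 1.92% of all probe sets passed (1.15% higher, 0.768% lower) and 7 subunits had an unadjusted p under 0.05. The lowest adjusted p was 0.0894 for Psmb3, which was 0.18 higher.

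Untreated kidneys differed from each other by week. An F test over the 6 untreated groups passed for 23 of 34 subunits (67.6%), against 32.9% of all probe sets and 59% of the genes with a mean above 8. Without week 0 it passed for 10 (29.4%), against 10.8% of all probe sets and 22% of the highly expressed genes. The smallest adjusted p values of these 10 were those of Psmb4 (8.08e-05), Psmd9 (0.00158) and Psmd11 (0.00199), and Psmb4 was the only core subunit among them. The week 0 arrays also had the highest mean of the 11 groups in the Gapdh control, at 1.36 ± 0.0783 against 1.07 to 1.32. The same held for that of Actb, at 2.69 against 2.49 to 2.62. Single arrays overlapped with most other groups.

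Between untreated week 14 and week 0, 5 of 34 subunits were higher and 3 lower, where 13.3% of all probe sets passed (8.78% higher, 4.52% lower) and 32.4% of the genes with a mean above 8 (25.5% higher, 6.87% lower). The higher subunits were the catalytic Psmb6 (0.61 ± 0.101, adjusted p = 0.00443) and Psmb7 (0.46 ± 0.0701, adjusted p = 0.00291), the ATPase Psmc4 (0.51), the chaperone Psmd9 (0.51) and the beta subunit Psmb1 (0.42). Psmb6 ran from 9.90 to 10.35 at week 0 and from 10.45 to 10.96 at week 14, so the groups did not overlap. The second probe set of Psmc4 did not share its rise (-0.03, adjusted p = 0.882), and the other probe sets of Psmd9 gave 0.56 (adjusted p = 0.0511) and -0.15. The lower ones were the lid subunits Psmd11 (-0.45 ± 0.0973, adjusted p = 0.0134) and Psmd12 (-0.25) and the ATPase Psmc2 (-0.33). The split depended on the scaling of the arrays. After centring each array on its median, which shifts the median of all probe sets to 0.10, 14 were higher and 1 lower, and after quantile normalization 3 were higher and 10 lower. Psmb6, Psmb7 and Psmc4 were higher and Psmd11 lower under all 3 scalings. The Gapdh control did not overlap between the compared groups, at 1.26 to 1.48 at week 0 and 1.01 to 1.13 at week 14. That of Actb did, at 2.33 to 2.99 and 2.45 to 2.67. Their part in these differences was not tested.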

How the data were processed

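The authors extracted total kidney RNA, labelled it with the NuGEN Ovation Biotin system, hybridised it to Affymetrix HT MG-430 PM arrays and normalized the probe intensities with RMA. The deposited values are log2 signals of 45141 probe sets on 95 arrays, with array medians from 4.22 to 4.57 and a floor of 2.21. The number of arrays limits the precision. Control probe sets (104) were left out. Genes were named by the array annotation.

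Each week's pristane and untreated mice were fitted alone with limma 3.58.1 in R 4.3.3 (lmFit, eBayes), with Benjamini-Hochberg adjustment over 45037 probe sets. Catalytic pairs were compared by exact permutation. The test was also run on simulated data. Promoter sequences from RefSeq were searched in Python 3.11.15. The members and lists were chosen with earlier results of these data known. Named genes were the catalytic subunits, members that passed, the extremes of each class at week 14, members at the floor, and up to 3 genes of each further list by p. Genes named in the comparisons among untreated or among pristane mice, second probe sets and single mice described by their markers were picked after seeing the data.

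The labels do not say which of the study's experiments a mouse came from, so that batch was not modelled. Replicate numbers were checked for pairing over 5000 probe sets. At no comparison did all pairs correlate above 0.1, so mice were not paired. Some pairs did, such as 5 of 9 at week 2, so the check does not exclude a link between equal numbers. No 2 arrays were identical. Alternatives were median centring, quantile normalization, a filter at the 40th percentile, a single fit, group weights, a trended robust fit, the replicate block, means over probe sets, stricter thresholds, leaving out each mouse and, added later, an adrenal covariate and leaving out mice or week 0.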

Additional observations from a re-analysis of the deposited data

Results flagged for a closer look

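Single mice far from the rest of their group were looked for in the 6 subunits that passed at week 14, the 3 constitutive catalytic subunits and Psmd3. Of 110 groups of mice tested for a value that stands apart, 11 had one, and chance gives about 1 in 20. Values are log2 signals.

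Most of these mice were low. Psmc4 was 9.16 in untreated mouse 3 of week 0 (others 9.53 to 9.80) and Psmd9 was 6.13 in untreated mouse 7 of week 0 (others 6.75 to 7.04). Psmd2 was 9.86 in pristane mouse 2 of week 2 (others 10.07 to 10.23) and Psmd14 was 10.43 in untreated mouse 7 of week 4 (others 10.57 to 10.71). Psmb7 was 9.66 in pristane mouse 3 of week 4 (others 9.94 to 10.24), and Psmb6 was 10.09 in pristane mouse 1 of week 8 (others 10.60 to 10.87). Psmb5 was 10.47 in untreated mouse 2 of week 8 (others 10.88 to 11.16). That mouse also had the lowest core mean of its group, at -0.32.

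High values were seen in Psma3, at 11.25 in pristane mouse 8 of week 4 (others 11 to 11.11), and in Psmb5, at 11.12 in pristane mouse 6 of week 8 (others 10.77 to 10.93).

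At week 14, Psmb6 was 10.45 in untreated mouse 5 (others 10.82 to 10.96) and Psmd9 was 6.27 in pristane mouse 5 (others 6.64 to 6.98). Over the 14 fits that left out 1 mouse of week 14 the Psmb6 difference lay between -0.11 and 0.02 and never passed, and without pristane mouse 5 Psmd9 still passed.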

How the results depend on the processing

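At weeks 2, 4, 8 and 12 no subunit passed under any alternative run, with each mouse left out in turn included. At week 14 the count of 6 became 0 with the replicate block, which calls no probe set of any gene with 5 pairs, 10 with the mean of all probe sets of a gene, 1 at the stricter adjusted p of 0.01, 0 when a 1.5 fold change was also asked, and 2 with the adrenal covariate. Leaving out 1 mouse gave 2 to 8, with 2 without untreated mouse 2 or 4, 3 without untreated mouse 3 or pristane mouse 3, 4 or 9, and 8 without pristane mouse 2. In these 14 fits Psmd2 was lost in 7, Psmd14 and Psmd5 in 12 and Psmd9 in 2. All 6 kept their direction. The replicate block changed no call at weeks 2 to 12, and the labels do not say whether replicate numbers pair the mice.

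The interaction of weeks 14 and 12, with 0 subunits, gave 1 with the filter or group weights, 3 in a single fit, 2 without pristane mice 1 and 2 of week 14, which were picked after seeing the data and have the highest Psmd3 signals of their group, and 0 to 1 with 1 mouse left out. Pristane week 14 against week 12 gave 2 with quantile normalization, 1 with the filter, 4 in a single fit, 2 without those mice and 0 to 2 with 1 mouse left out (1 without mouse 1, 2 without mouse 2). For untreated week 14 against week 0 the count of 8 became 15 with median centring, 13 with quantile normalization, 16 in a single fit, 2 with the replicate block, 2 at the stricter adjusted p, 1 with the fold change limit, 4 with the adrenal covariate and 4 to 11 with 1 mouse left out (4 without untreated mouse 3 of week 14, 5 without mouse 1, 2 or 4 or mouse 2 of week 0). The F test over untreated groups gave 10 without week 0 in place of 23. The cause of these differences was not tested. The catalytic pairs gave 10 of 15 under each scaling and with the mean of all probe sets, and 9 to 12 with 1 mouse left out. Few mice at week 14 limit what small differences can show.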
